A study of Homo sapiens with 8 samples.

Results

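The regions described here carried an H3K27ac peak in all 3 NRF2 siRNA libraries and in 0 of the 3 control siRNA libraries of A549 cells. Peaks of the 6 deposited lists were merged into regions wherever they overlapped by at least 1 base, which gave 49186 regions, and 408 of them (0.83%) met this rule. The call pattern itself selected the 408 regions, so it is given as a description with no test. For comparison, 1118 regions were called only in the 3 control libraries, 3329 were called in 3 libraries drawn from both groups, and 16845 were called in all 6.

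A549 is a human lung adenocarcinoma line with a KEAP1 mutation, in which the transcription factor NRF2 is persistently active. Cells were harvested 48 h after transfection, either with control siRNA (replicates 1, 2 and 3) or with NRF2 siRNA, where replicate 1 had received the siRNA numbered 28 and the other replicates, 2 and 3, the siRNA numbered 30. Replicate 1 of both groups also differed from the others in the form of its peak names, so the siRNA and a technical batch cannot be told apart. As a check of the labelled epithelial line, regions at the starts of KRT8, KRT18, CDH1 and EPCAM were called in 6 libraries, that at KRT19 in 0, and those of 7 blood, fibroblast and endothelial markers in 0.

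H3K27ac is the acetylated form of histone H3 lysine 27, placed by the acetyltransferases p300 and CBP on nucleosomes beside active promoters and enhancers. Promoter peaks tend to be broad and shared between conditions, whereas enhancer peaks lie within introns or between genes and change more readily with cell state. A peak shows that a stretch was enriched in a library, and the nearest coding gene is a positional label that does not identify the gene an enhancer acts on.

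Among the 4 regions ranking highest on average in the NRF2 siRNA lists, 3 are shown by sequence, because they are among the strongest calls of the 408. Each sequence is the central 200 bases of the stretch that peaks of all 3 NRF2 siRNA libraries covered, read from the plus strand of hg19, with CpG dinucleotides in capitals. They are chr11:134800208-134800407 (intergenic, labelled by B3GAT1), chr20:61371597-61371796 (intron of NTSR1) and chr14:94431848-94432047 (intron of ASB2).
B3GAT1: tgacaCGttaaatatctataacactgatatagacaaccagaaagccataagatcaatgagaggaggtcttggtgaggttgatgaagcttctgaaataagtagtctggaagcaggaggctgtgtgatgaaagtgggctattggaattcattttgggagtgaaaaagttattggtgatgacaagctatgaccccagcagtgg
NTSR1: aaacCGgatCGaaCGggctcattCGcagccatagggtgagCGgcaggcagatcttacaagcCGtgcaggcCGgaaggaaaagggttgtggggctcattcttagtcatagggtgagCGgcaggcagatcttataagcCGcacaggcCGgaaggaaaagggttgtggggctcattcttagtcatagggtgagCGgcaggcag
ASB2: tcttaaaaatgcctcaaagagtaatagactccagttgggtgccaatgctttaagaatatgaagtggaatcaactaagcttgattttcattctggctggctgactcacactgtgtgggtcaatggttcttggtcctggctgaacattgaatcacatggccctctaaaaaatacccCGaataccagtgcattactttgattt
The B3GAT1 and ASB2 stretches held 1 CpG each and the NTSR1 stretch 11. The NTSR1 stretch was built of near-identical repeats, the longest exact repeat within it being 60 bases. Of all 32-base words in each printed stretch, 100% (B3GAT1), 53.8% (NTSR1) and 100% (ASB2) occurred once in hg19, counting both strands.

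The strength of each call was expressed as a within-list percentile, the rank of a peak's fold enrichment among all peaks of the same library, because fold values of lists of different length are not on one scale. The intergenic region at chr11:134799502-134801798 ranked highest, with percentiles of 81.6, 78.9 and 73.9 in NRF2 siRNA replicates 1, 2 and 3. It lay 517366 bases upstream of the start of B3GAT1, which encodes a glucuronyltransferase that makes the HNK-1 (CD57) epitope, and 18804 bases from the long non-coding RNA LINC02697. It was high in every NRF2 siRNA list, and the nearest peak of any control library was 3033 bases away.

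The second region lay in an intron of NTSR1, the neurotensin receptor, 30123 bases downstream of its start (chr20:61370311-61373101). Its percentiles were 58.7, 80.0 and 78.5, lower in the siRNA 28 library than in both siRNA 30 libraries. No control peak was nearer than 34446 bases. The third, in an intron of GREB1L, a gene needed for kidney development, had percentiles of 71.0, 67.6 and 57.1, and repeated sequence took part of it, with 72.3% of its 32-base words found once in hg19. The fourth, in an intron of ASB2, a substrate receptor of a ubiquitin ligase, had percentiles of 70.5, 49.7 and 60.0. The ASB2 region lay 3435 bases from a region called in all 6 libraries.

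**Figure D1:**
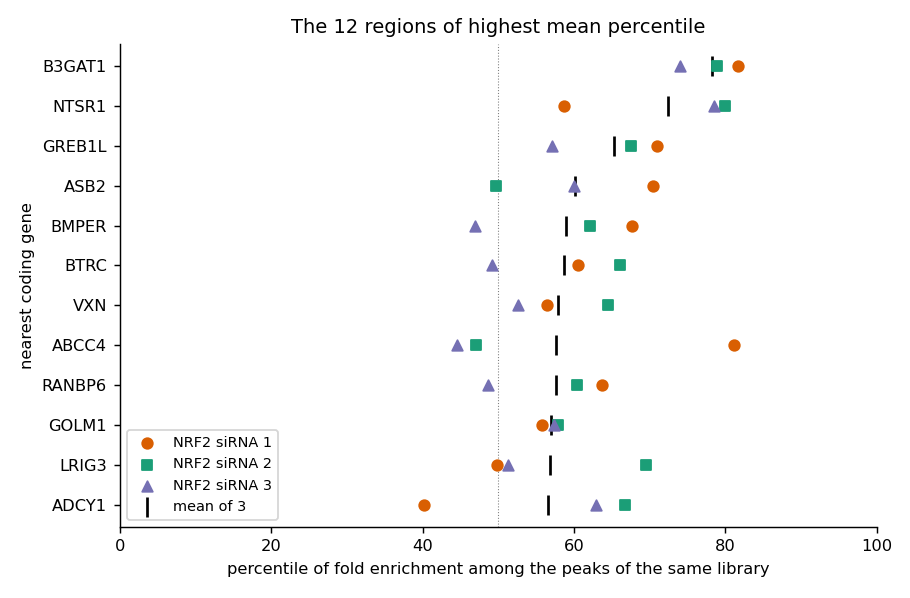
Within-list percentile of fold enrichment (horizontal axis, 0 to 100) for the 12 regions of highest mean percentile, labelled by nearest coding gene, with 1 point for each NRF2 siRNA library and a bar at the mean of 3. The B3GAT1 region sits at 73.9 to 81.6 in the 3 lists, whereas the ABCC4 region sits at 81.1 in replicate 1 and at 47.1 and 44.5 in replicates 2 and 3.

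The remaining 8 of the 12 highest regions were intronic in BMPER, BTRC, VXN and ABCC4 and intergenic near RANBP6, GOLM1, LRIG3 and ADCY1. BMPER encodes a secreted regulator of bone morphogenetic proteins, and its region had percentiles of 67.6, 62.1 and 47.0. The region in BTRC, which encodes the F-box protein beta-TrCP of a ubiquitin ligase, had 60.6, 66.1 and 49.2. The region near GOLM1, a Golgi membrane protein, was the most even of the 12, with 55.7, 57.9 and 57.4. Repeated sequence took part of the GOLM1 and RANBP6 regions. Of their 32-base words, 56.9% and 59.4% were found once in hg19, against a median of 97.8% for the 408.
The region in ABCC4, an organic anion efflux pump of the ABC transporter family, had 81.1, 47.1 and 44.5, and that near ADCY1, an adenylate cyclase, had 40.2, 66.8 and 62.9. These last regions show the siRNA 28 library apart from both siRNA 30 libraries, in opposite directions. No start of NTSR1, GREB1L, ASB2, B3GAT1, VXN or ADCY1 was called in any of the 6 libraries, while the starts of ABCC4, RANBP6 and GOLM1 were called in all 6.

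Most of the 408 calls were weak. The median percentile was 23.8 in NRF2 siRNA replicate 1, 29.2 in replicate 2 and 27.9 in replicate 3, a mean of 27.0 ± 2.82 (SD, n = 3), against 59.9, 73.7 and 77.2 for the regions called in all 6 libraries. Regions called only in controls had medians of 30.0, 32.4 and 45.5 in their 3 control lists. Regions called in 3 libraries of both groups had 16.8, 19.7 and 23.5 where NRF2 siRNA replicates 1, 2 and 3 called them. Weak calls were thus not particular to the 408. Among the 408, 7 regions ranked above the 50th percentile in all 3 lists and 67 ranked below the 25th in all 3. The −log10 q-value fell under 2 in at least 1 list for 273 regions. A q-value of at most 1e-05 in all 3 lists was reached by 2, those labelled by B3GAT1 and RANBP6. Of the 32-base words in these regions, 87.2% (B3GAT1) and 59.4% (RANBP6) were found once in hg19.

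The ranking among the 408 was shared mainly by replicates 2 and 3, which had siRNA 30 and also longer lists than replicate 1. The siRNA and the list length cannot be told apart here. Across regions, Spearman's rank correlation of the percentiles was 0.545 between replicates 2 and 3, 0.186 between replicates 1 and 2, and 0.146 between replicates 1 and 3. Over the 16845 regions called in all 6 libraries, the same values were 0.939, 0.766 and 0.750. These are descriptions across regions, which share libraries and are not replicates, and most of the 408 lie low on the scale. Replicate 1 ranked a region more than 20 points below both other lists in 52 cases and more than 20 points above both in 48.

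**Figure D2:**
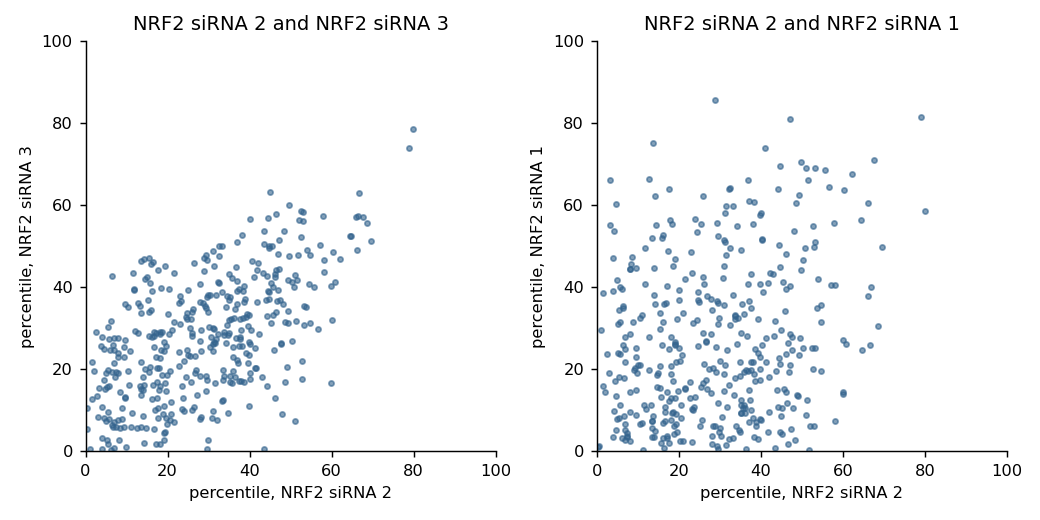
Within-list percentiles of the 408 regions, 1 point per region, in NRF2 siRNA replicates 2 and 3 (left) and in replicates 2 and 1 (right). The points follow a diagonal more closely in the left panel (Spearman's rank correlation 0.545) than in the right (0.186).

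The rule's edge was thin. The weakest member call was a region labelled by DIRAS2, whose −log10 q-value was 3.96, 1.93 and 1.02 in replicates 1, 2 and 3. Just outside the rule, a region 90701 bases from the start of FGF1, a fibroblast growth factor, had 2.72, 10.0 and 5.34 in the NRF2 siRNA lists and was set aside for a single control peak of 1.07 in replicate 1. A further 392 regions had peaks in all 3 NRF2 siRNA lists and in 1 control list, and 1785 had peaks in 2 NRF2 siRNA lists and 0 control lists. Of these 1785, 1628 lacked a peak only in replicate 1, the shortest list with 23885 peaks.

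The control-only pattern was more frequent, at 2.27% of merged regions. The number and the identity of the regions depended on list length and threshold. With each list limited to its 23885 peaks of highest fold, 610 regions met the rule and overlapped 78 of the 408 (19.1%), and with peaks of a q-value of at most 1e-05 only, 90 regions met it and overlapped 2. Leaving out a library loosens the rule, so a higher number follows from the rule itself. Without NRF2 siRNA replicate 1 the number was 2036, and these overlapped 405 of the 408. Without control siRNA replicate 3 it was 638, and these overlapped all 408.

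By place, the 408 regions lay away from gene starts. Intergenic sites held 206 (50.5%, Wilson 95% interval 45.7 to 55.3), introns of coding genes 139 (34.1%), and exons 53 (13.0%), of which 21 touched a UTR. Only 10 regions (2.45%, 1.34 to 4.45) held the start of a coding transcript. Of all merged regions, 38.4% were intergenic and 21.9% held a start.

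This scarcity of starts was shared by the regions called only in controls, of which 2.68% held one, and was less marked in the regions called in 3 libraries of both groups (13.6%). The intergenic share was 40.7% for the control-only regions (37.9 to 43.6) and 43.0% for those of both groups (41.4 to 44.7), below the interval of the 408. Control-only regions were more often intronic, at 44.1%. Intervals cover counting error over regions only, since all of them come from the same 6 libraries. When genes of every type were counted, 33.8% of the 408 lay outside any gene, against 23.6% of all regions.

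**Figure D3:**
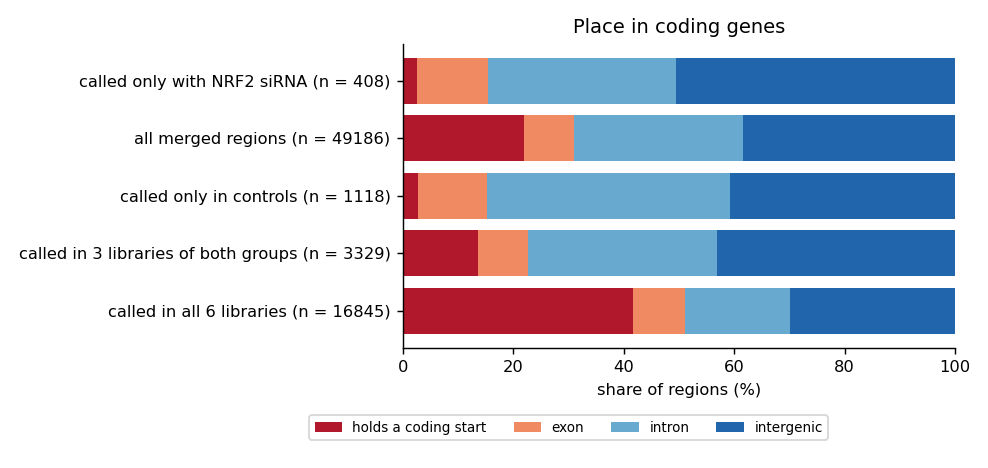
Share of regions (horizontal axis, %) that held a coding start, lay in an exon, in an intron or between coding genes, for the 408 regions called only with NRF2 siRNA and 4 sets set beside them. The 2 sets called in a single group held starts in 2.45% and 2.68%, whereas 41.7% of the regions called in all 6 libraries did.

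The median distance to the nearest coding start was 45136.5 bases, with quartiles of 14747 and 126591. It was 28625 for the control-only regions, 26695 for the regions called in 3 libraries of both groups and 20549 for all regions. Of the 408, 81 lay within 10 kb of a start and 122 (29.9%) lay beyond 100 kb, a share of 20.3% in the control-only set. The most distant lay 1963586 bases from the start of PCDH7, a protocadherin. Upstream and downstream positions were about evenly split, at 191 and 207.

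The 10 regions that held a coding start were mostly weak calls at alternative starts. The strongest, at chr9:117825350-117826672, lay at an internal start of TNC, which encodes the matrix glycoprotein tenascin-C, 53814 bases from the gene's 5′ end, and had percentiles of 19.3, 29.0 and 44.1. A region at SEC23B, a coat protein of transport vesicles leaving the endoplasmic reticulum, had 7.15, 38.7 and 36.5. The others were at ANKRD18B, MARCHF3, INPP4B, FAM177B, LMNTD1, ZNF438, ADGRA3 and ACSBG1, and only those at FAM177B and LMNTD1 held the 5′ end of the gene itself. A further region, in CPM, a carboxypeptidase, held the annotated 5′ end of the gene but no start of a coding transcript, and was counted as intronic. INPP4B, an inositol phosphatase that acts on phosphoinositide signals, had its 5′ end 173 bases away.

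In base composition the 408 regions were poor in CpG. Their median GC content was 40.3%, against 44.6% for all regions and 41.8% for control-only regions. The median ratio of observed to expected CpG was 0.173, against 0.231 and 0.185. A ratio over 0.6, a usual mark of CpG islands, was found in 2 of the 408 (0.49%), the region at the INPP4B start and 1 labelled by CYP26B1. The share was 0.894% for control-only regions and 17.2% for all regions.
The median length was 1649.5 bases and the longest 5 were at NLRP1 (5640 and 4712 bases), UCHL5 (4980), RPL10L (4746) and MITF (4263). Most words of 32 bases were unique in hg19, with a median of 97.8% per region, and 5 regions had under 50%, labelled by POMZP3, ANKRD18B, ZNF121, PSG3 and CYP26B1. In 13 of the 408, no single base was covered by peaks of all 3 lists, so that the region joined through partly overlapping peaks.

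The 408 regions had 383 different nearest coding genes, and 361 of these genes were nearest to exactly 1 region. The start of the nearest gene was itself called in all 6 libraries for 173 of the 398 regions that held no start (43.5%), and in 0 libraries for 145 (36.4%). For control-only regions these shares were 52.9% and 27.7%. Within introns, 121 regions were nearest to a start of the gene they lay in and 18 to that of another gene.

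Grouped by function of the nearest gene, members spread over many families, and 293 of the 408 fell in no listed group. Lists of families were matched by gene symbol, and shares are given beside those of all 49186 regions, with no test. Genes for collagens, laminins and matrix proteases labelled 10 regions (2.45%, against 1.09% of all regions and 1.07% of control-only regions). Those of highest mean percentile were COL27A1, FBN1, MMP13 and TNC.
The region in an intron of COL27A1, a fibrillar collagen, had percentiles of 69.0, 53.3 and 35.5. The region labelled by FBN1, the microfibril protein fibrillin-1, lay in an intron of CEP152 and had 30.5, 68.6 and 55.7. The region 40031 bases upstream of MMP13, a collagenase, had 39.0, 40.6 and 46.4, and the start of neither FBN1 nor MMP13 was called in any library.

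Cytokine and innate immunity genes labelled 12 regions (2.94%, against 1.79% of all regions), with CD58, TRIM44, TNFAIP3 and NLRP1 the highest. TNFAIP3 encodes the A20 inhibitor of NF-kappaB signalling, and its region, 57493 bases upstream, had percentiles of 54.9, 34.2 and 26.6. NLRP1, an inflammasome sensor, was nearest to a pair of long regions 205917 and 212753 bases upstream. The region labelled by CD58, a T cell adhesion ligand, had 35.0, 53.7 and 35.2. Regions near CSF2, which encodes GM-CSF, and IFNB1, which encodes interferon beta, had mean percentiles of 30.8 and 10.3.

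G protein-coupled receptors also labelled 12 regions (2.94%, against 1.49%), led by NTSR1, HTR2C, F2R and ADGRA3. The intergenic region near HTR2C, a serotonin receptor, had percentiles of 49.8, 52.96 and 58.5. ADGRA3, an adhesion receptor, labelled 4 of the 12, so the number of genes was 9. Axon guidance genes labelled 7 regions (1.72%, against 0.996% of all and 0.358% of control-only regions), with EFNA5, NRP1, EPHB6 and SEMA3A highest. The region upstream of NRP1, a receptor for semaphorins and VEGF, had 26.0, 66.5 and 57.5.

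Ion channel genes labelled 10 regions (2.45%, against 1.56% of all regions and 2.15% of control-only regions). The highest was labelled by CACNA2D4, a calcium channel subunit, lay in an exon of ADIPOR2, and had percentiles of 55.1, 52.6 and 58.6. Zinc finger genes labelled 8 regions (1.96%, against 1.88% of all regions), solute carriers 7 (1.72%, against 2.06%) and cell adhesion genes 7 (1.72%, against 1.27%), shares near those of all regions. Shares were lower than those of all regions for cytoskeleton genes (3 regions, 0.735%, against 1.42%) and drug and lipid metabolism enzymes (3, 0.735%, against 1.25%). WNT, TGF-beta, BMP, Hedgehog and Notch pathway genes labelled 5 (1.23%, against 1.64%). Homeobox, forkhead, SOX, T-box and GATA factors labelled 6 (1.47%, against 1.91%). No region was labelled by KLF, ETS, AP-1 or C/EBP factors, by lung and foregut lineage genes, or by p53 targets and cell cycle inhibitors. These label few of all regions (0.819%, 0.34% and 0.325%).

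Of the listed NRF2 targets, 1 labelled a region (0.245%, against 0.39% of all regions). It was SLC7A11, the cystine and glutamate antiporter that supplies cysteine for glutathione. The region, at chr4:139325543-139328035, lay 162040 bases upstream and had percentiles of 9.36, 35.1 and 31.95. The start of SLC7A11 was called in all 6 libraries.

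Along the chromosomes the 408 regions were mostly isolated. The median gap to the next such region on the chromosome was 1734719 bases, and 42 regions (10.3%) had another within 100 kb, all in 21 pairs with no longer chain. Of control-only regions 15.2% had another of their own kind within 100 kb. That set is larger, which bears on the share directly. The closest pair, upstream of SIAH1, an E3 ubiquitin ligase, was 1196 bases apart and had percentiles of 37.8, 66.1 and 57.1 in its higher region. The NLRP1 pair was 2124 bases apart and the CACNA2D4 pair 3222.

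Chromosome 9 held 33 of the regions, 1.69% of its 1952 merged regions (Wilson 95% interval 1.21 to 2.36), above the 0.83% of all regions. Chromosome 19 held 4 of 1463 (0.273%, 0.106 to 0.701) and chromosome 17 held 9 of 2068 (0.435%, 0.229 to 0.825), both below 0.83% with their whole interval. The lowest share among the autosomes, on chromosome 21 (1 of 504, 0.198%), had an interval of 0.035 to 1.12. Here too intervals cover counting error over regions only. The chromosomes named were picked by their shares from all chromosomes, with no test. The share of control-only regions on chromosome 9, 2.36%, was near their share over all chromosomes. On chromosome 9 the regions were spread, and the labels included RANBP6, GOLM1, COL27A1, TNC, IFNB1 and a pair each at TLE1 and ACTL7B. The median share of unique 32-base words was 94.8% for these 33 regions, against 97.8% for the 408, and its part in the count was not tested.
Of windows of 5 Mb, 344 of 610 with any merged region held 0 of the 408 and 1 held 6, on chromosome 1, where they were labelled by CAMK1G (2), PLXNA2, C4BPB, FCMR and IL24.

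**Figure D4:**
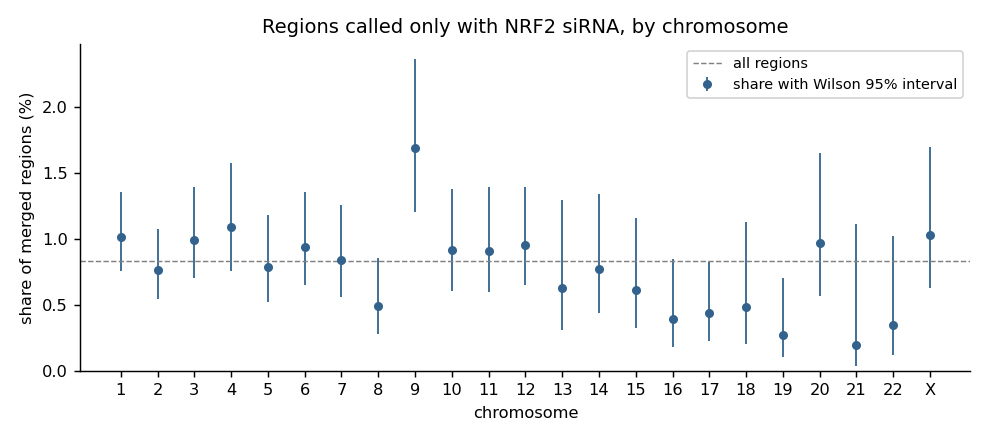
Share of each chromosome's merged regions that were called only with NRF2 siRNA (vertical axis, %), with Wilson 95% intervals, for chromosomes 1 to 22 and X, and a dashed line at 0.83% for all regions. Chromosome 9 lies above the line with its whole interval (1.21 to 2.36). Intervals cover counting error over regions only.

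In all, 22 genes were nearest to 2 or more of the regions. ADGRA3 was nearest to 4 regions within and upstream of the gene, from an internal start to 568129 bases away, and LAMP5, a lysosome-associated membrane protein of neurons, to 3, of which a pair lay in introns of PAK5. Their percentiles were lowest in replicate 1 in every case except the intronic ADGRA3 region, for example 9.55, 41.9 and 44.4 for the most distant ADGRA3 region. MITF, the melanocyte transcription factor, labelled an intronic pair with mean percentiles of 20.2 and 23.4. None of the LAMP5, MITF, GREB1L or NLRP1 regions had a control-only region assigned to the same gene, and ADGRA3 and SIX2 had 1 each. Control-only regions made up 2.27% of all merged regions, of which LAMP5, MITF, GREB1L and NLRP1 were nearest to 8, 19, 5 and 6. With so few regions per gene, a count of 0 is no trait of these genes.

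Around the 408 regions, acetylated regions common to both groups were often near. A region called in all 6 libraries lay within 50 kb of 228 of the 408 (55.9%), and the share was 59.8% for control-only regions. A control-only region lay within 50 kb of 12 (2.94%), against 5.74% of the regions called in 3 libraries of both groups. The nearest control peak of any kind was within 5 kb for 81 of the 408, and 79 had none within 50 kb.

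The regions called in all 6 libraries within 50 kb of the 408, 374 in number, were more often called higher with NRF2 siRNA than lower. Each library's regions were ranked by fold enrichment and turned into normal scores (the value of a standard normal distribution at that rank), and the groups were compared with limma over all 16845 regions. With Benjamini-Hochberg adjustment at 0.05, 21 of the 374 neighbours (5.61%) were higher with NRF2 siRNA and 3 (0.802%) were lower, where 2.02% and 2.19% of all 16845 regions were higher and lower. The neighbours did not enter the rule, but they come from the 6 libraries that chose the 408 regions and many lie beside them, so this is a description and no independent support.
The median difference in score, NRF2 siRNA minus control, was 0.22 over the 374 neighbours and -0.01 over all 16845. The difference was positive for 258 neighbours (69.0%), against 49.6% of all 16845. Within replicate pairs, 67.1% of neighbours were higher with NRF2 siRNA in pair 1, 63.4% in pair 2 and 66.6% in pair 3. Over all 16845 regions these shares were 51.0%, 49.7% and 47.9%. With the replicate as a block, 56 neighbours were higher and 5 lower, where 5.42% and 4.21% of all regions were called. The count of 21 depended on single libraries. With control replicate 3, 2 or 1 left out it was 1, 6 or 11. With NRF2 siRNA replicate 2, 3 or 1 left out it was 2, 11 or 29. Calls over all 16845 regions changed as well. Without control replicate 3, 0.0356% of all regions were higher, against 0.267% of neighbours. These shares were 0.131% and 0.535% when NRF2 siRNA replicate 2 was dropped, and 0.421% and 1.60% when control replicate 2 was dropped. In every such fit the neighbours' share was the larger, but the 374 neighbours were still those chosen with all 6 libraries. The left-out library thus had a part in that choice, and these fits are no independent support. Without control replicate 3, 1 neighbour was also lower (0.267%, against 0.261% of all regions). The share of neighbours with a positive difference ran from 64.7 to 72.2% across these fits.

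The difference was larger nearer to the 408 regions. The median score difference was 0.51 over the 50 shared regions at up to 5 kb, 0.36 over 122 at 5 to 20 kb, 0.14 over 202 at 20 to 50 kb and 0.07 over 324 at 50 to 100 kb. Shared regions within 50 kb of control-only regions, 1144 in number, had a median of -0.08, with 7 higher and 44 lower. The 374 neighbours of the 408 held a start less often than all 16845 regions (30.7% against 41.7%). They were more often intergenic (38.2% against 29.9%), and the part of place in the difference was not tested.

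**Figure D5:**
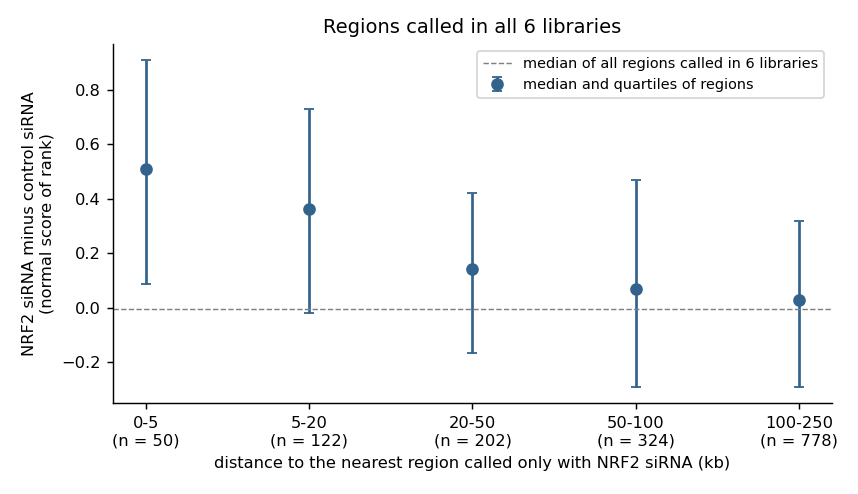
Difference in normal score, NRF2 siRNA minus control siRNA (vertical axis), of regions called in all 6 libraries, by distance to the nearest of the 408 regions (horizontal axis, kb). Points are medians over regions, bars run between quartiles over regions, and the dashed line is the median of all 16845. The medians go from 0.51 at up to 5 kb to 0.03 at 100 to 250 kb.

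Of the 21 neighbours that were higher, 20 ranked higher in every NRF2 siRNA list than in every control list. The call itself favours such separation with 3 libraries per group, and its share over all regions was not counted. The 20 are therefore a description that adds nothing to the calls. The region in an intron of ZNF385B, a zinc finger gene, had percentiles of 6.08, 33.0 and 30.2 in control replicates 1, 2 and 3 and of 72.2, 92.1 and 85.8 in NRF2 siRNA replicates 1, 2 and 3. Its score difference was 2.43 ± 0.267 (SE), with a limma adjusted p of 0.00576, and it lay 3514 bases from a region of the 408. The groups did not overlap, and the call held with each of the 6 libraries left out.

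A region in an intron of MITF had percentiles of 20.5, 27.0 and 37.6 in control and 84.6, 77.2 and 84.4 in NRF2 siRNA libraries (difference 2.02 ± 0.248, adjusted p = 0.00731, limma). It lay 4587 bases from a region of the MITF pair. A region in an intron of DCLK1, a doublecortin-like kinase, had 22.8, 33.7 and 43.7 against 58.8, 77.7 and 85.1 (adjusted p = 0.00926, limma). Here too no control value reached an NRF2 siRNA value.
The region near P2RY2, a nucleotide receptor, had 6.94, 14.5 and 10.9 in control and 58.4, 64.4 and 53.3 in NRF2 siRNA libraries, and the region in TGFA, an EGF receptor ligand, had 75.9, 72.0 and 75.4 against 94.5, 94.0 and 93.5. Their limma adjusted p-values were 0.0221 and 0.031. The others that were higher were labelled by CREB3L1, CD109, SLC4A7, CACNA2D4, TEX48, ZNF365, EEA1, CDCP1, MYLK, LAMP5, NDP, ADGRA3, ATP2A2, ZFAND5, HECW2 and LRRN3, with limma adjusted p-values from 0.0156 to 0.0495. When each of the 6 libraries was left out in turn, the MITF call was made 5 times, the DCLK1 call 4, the P2RY2 call 3 and the TGFA call 2, and the calls of the other 16 between 0 (ATP2A2 and LRRN3) and 3 times.

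The 3 neighbours that were lower lay at FOXP1, SRL and CTAGE1. The region in an intron of FOXP1, a forkhead transcription factor, had percentiles of 87.2, 85.2 and 77.5 in control and 0.929, 26.9 and 13.1 in NRF2 siRNA libraries. The difference was -2.76 ± 0.325 (SE), with a limma adjusted p of 0.00656, and it held with each library left out, whereas the SRL and CTAGE1 calls were each made in 1 of the 6 fits. It lay 38180 bases from a weak region of the 408 in the same gene, whose percentiles were 3.16, 17.2 and 1.75. All 21 higher and all 3 lower calls were also made with the replicate block.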

How the data were processed

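H3K27ac ChIP-seq peak lists of 3 control siRNA and 3 NRF2 siRNA libraries of A549 cells were used. The 2 input samples had no peak list and were not analysed here. Per the submitters' processing notes and methods, the authors converted and trimmed reads with bcl2fastq 2.15.0 and cutadapt 1.15, aligned them to hg19 with Bowtie2 2.2.6, called broad peaks in each library with MACS2 2.1.0.20151222 and removed blacklisted peaks. The deposited lists give for each peak an integer score, fold enrichment as a ratio, and p- and q-values as −log10. They hold no counts, so the reads behind a single value are unknown, and the study reports fewer reads for replicate 1 of both groups.

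Peaks were merged at 1 base of overlap. A region took its highest peak in a library. The percentile is the rank of its fold enrichment among the peaks of that list. Peaks on 10 contigs (136 of 202238) were kept. Genes came from GENCODE lifted to GRCh37 (19480 coding genes). A start is that of any coding transcript. Regions called in all 6 libraries were compared with limma (version 3.58.1, R 4.3.3) on normal scores. Tested on simulated scores, this recovered most large shifts and missed small ones. Deviations from the group means correlated between libraries of the same number (r = 0.356 for replicate 1, 0.297 for replicate 2 and 0.34 for replicate 3), and the numbers in the titles were taken to pair them. The study describes the replicates as independent experiments.

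Named regions were the 12 of highest mean percentile, those holding a start, the 5 longest, genes nearest to 2 or more regions, up to 4 per gene group, the called neighbours and those at the rule's edge. The closest pairs, CSF2, IFNB1, SLC7A11 and the word counts (32 bases) were added after values were seen. Some sequences and gene names are not reported here. The regions and all gene lists were chosen with earlier results of these data known. Alternatives were a q-value limit, equal list lengths, other merging and distance rules, the replicate block and leaving out each library.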

Additional observations from a re-analysis of the deposited data

How the results depend on the processing

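The lists hold no read counts, so a missing call is not a measured absence. Among the NRF2 siRNA libraries, the short list of replicate 1 and siRNA 28 cannot be told apart. Control siRNA replicate 1, without siRNA 28, also had the shortest list of its group (27941 peaks, against 34747 and 41571). Under the q-value limit of 1e-05 there were 90 regions, with a median percentile of 71.1, a median distance to a coding start of 35839.5 bases and a share with another within 100 kb of 2.22%. With equal list lengths the median percentile was 44.1 and the share within 100 kb 14.6%, and 49.8% of the 610 regions were intergenic. Other definitions gave 33.8% outside genes of every type, 5.39% with a start within 1 kb, a median of 66391 bases to gene 5′ ends, and 5.39% and 16.7% with another region within 50 and 250 kb.

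Leaving out each library in turn, which loosens the rule, gave 465 to 2036 regions. Their median percentiles were 20.8 to 28.3, start shares 1.62 to 4.55%, shares within 100 kb 10.3 to 26.4%, and intergenic shares 47.5 to 51.9%. Neighbours higher and lower numbered 56 and 5 with the replicate block, 12 and 0 within 20 kb, 34 and 10 within 100 kb, and 1 to 29 and 1 to 6 with a library left out. Where 0 were lower by limma within 20 kb, 6 of 172 were at an unadjusted p under 0.05. Merging across 500 bases, the 10% coverage rule and the length-weighted fold left every count they applied to within 1.5 times. The causes were not tested, beyond fewer or more regions entering each setting.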
